A study of Rattus norvegicus with 30 samples.

Results

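Inmt and 4 other small-molecule methyltransferases, Nnmt, Tpmt, Pemt and Gamt, were followed across 6 diets in rat liver. All 5 enzymes take their methyl group from S-adenosylmethionine (SAM). Each was measured by 1 probe set, a group of probes read together as 1 intensity, and these were 5 of the 10699 named genes tested and of the 14217 named on the array. Inmt was chosen on its measured difference between the tofu and casein diets, and the other enzymes were chosen by their class. Values of Inmt in any comparison with T20 or C arrays are therefore given as a description with no test.

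The livers came from 30 male Sprague-Dawley rats, 5 on each diet, with 1 array per rat. Rats arrived at 4 weeks of age, adapted for 5 days and ate the diets for 14 days. In T20, freeze-dried tofu supplied 200 g/kg of protein. In T10, tofu and casein supplied 100 g/kg each. SI was soy protein with added isoflavones, S was soy protein alone, CI was casein with added isoflavones and C was casein alone. The isoflavone level in SI and CI was set to that of T20. Protein source and isoflavone thus varied separately among SI, S, CI and C, while T20 and T10 differed in the amount of tofu.

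Methyltransferases of this kind attach a methyl group from SAM to a small acceptor and release S-adenosylhomocysteine, which slows them unless it is removed. Inmt, indolethylamine N-methyltransferase, acts on tryptamine and related amines. Nnmt methylates nicotinamide, the amide form of vitamin B3, and Tpmt methylates thiopurine drugs on sulfur. Pemt turns phosphatidylethanolamine into phosphatidylcholine in liver cells, and Gamt makes creatine from guanidinoacetate. Pemt and Gamt are counted among the main users of SAM in liver.

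Median intensities of the arrays lay between 216.9 and 254.7, and precision is set by 5 arrays per diet. GAPDH control probes near the 3′ end, read over those near the 5′ end, give a ratio that is higher in degraded RNA. It was 1.32 to 1.58 in T10 replicates 3, 4 and 5, against 0.970 to 1.25 on the other 27 arrays. The like ratio for actin, 2.35 to 2.43 on those 3 arrays, lay within the 1.84 to 2.89 of the others. In the labels, identical normalization parameters stand for C replicate 3 and CI replicate 3. Inmt differences in the comparisons that rest on these arrays are given with and without them. Its means, the steps between them, its ranges and its correlations use all 30 arrays unless stated. Comparisons that use any of these arrays held no call of the other 4 enzymes, with them or without them. Of the hepatocyte markers on the array, 5 of 5 passed the filter on dim probe sets, a mean intensity above 167.6. None of the 5 enzymes had a value at or below the intensity floor of 16. Inmt on the soy protein diet was dim, however, with 138.2 in S replicate 5, under the filter level of 167.6, and 177.2 in S replicate 2. In whole liver, fewer cells of a type and less RNA per cell cannot be told apart.

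Inmt was highest on the tofu diets and lowest on the soy protein diets. On the log2 scale of intensity, the T20 livers read 13.09, 10.97, 11.60, 10.26 and 11.61. The T10 livers read 10.91, 10.32, 11.20, 10.85 and 11.34. Both tofu groups lay above 10.2, and T20 replicate 1 stood highest of all livers. SI livers had Inmt values of 7.88, 7.85, 9.16, 7.99 and 8.82. S livers had values of 8.30, 7.47, 8.63, 7.99 and 7.11. No tofu liver overlapped a soy protein liver. CI livers read 9.78, 8.48, 10.43, 8.58 and 10.18. C livers read 10.03, 8.82, 8.61, 10.46 and 9.21. The casein groups lay between the others and overlapped both.

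**Figure D1:**
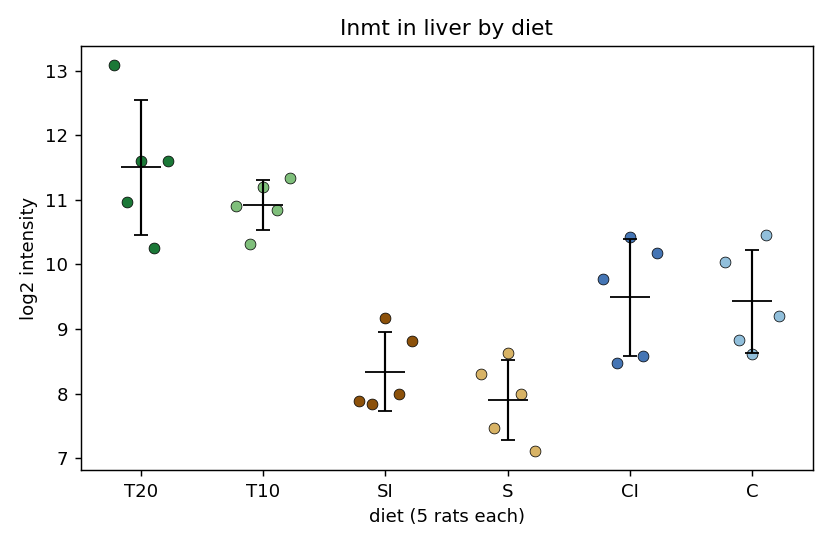
Inmt log2 intensity (vertical axis) in each of 30 livers by diet (horizontal axis); points are livers, horizontal lines are means and bars are SD over 5 rats. Means ran from 11.51 in T20 and 10.92 in T10 to 8.34 in SI and 7.90 in S, with 9.49 in CI and 9.43 in C.

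Mean Inmt levels were 11.51 ± 1.04 in T20, 10.92 ± 0.39 in T10, 8.34 ± 0.61 in SI, 7.90 ± 0.61 in S, 9.49 ± 0.91 in CI and 9.43 ± 0.79 in C (log2 intensity, SD, n = 5 each). On the linear scale the mean intensities were 3633 in T20, 1997 in T10, 349 in SI, 256.2 in S, 831 in CI and 779 in C. From the top, the order was T20, T10, CI, C, SI, S. The steps between T10 and CI, of 1.43 log2, and between C and SI, of 1.09 log2, exceeded the SD of both neighbours, although their ranges overlapped. T20 and T10, 0.58 log2 apart, differed by more than the SD of T10 and less than that of T20, and the remaining neighbours by less than the SD of both. Over all livers Inmt spanned 5.98 log2, a range wider than that of 99.9% of tested probe sets. Inmt was chosen on a difference between T20 and C arrays, which are among these livers. A wide range was thus favoured by the choice, and its rank is a description. The SD of Inmt within diets, 0.76 log2, also lay high, above that of 98.5% of tested probe sets, so the rats on 1 diet differed widely.

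Inmt in T20 livers was higher than in C livers by 2.08 ± 0.45 log2 (difference ± SE, 4.22-fold). Leaving out 1 array at a time moved this value between 1.68 and 2.39, and without C replicate 3 and CI replicate 3 it was 1.87. T10 livers were higher than C livers by 1.50 ± 0.45 log2 (2.82-fold). Without T10 replicates 3, 4 and 5 that difference was 1.19 ± 0.61 log2, and 1.29 ± 0.46 without C replicate 3 and CI replicate 3. T20 livers exceeded T10 livers by 0.58 ± 0.45 log2, less than the SD within T20, by 0.19 log2 without T20 replicate 1 and by 0.89 ± 0.61 log2 without T10 replicates 3, 4 and 5. These comparisons share C or T20 arrays, so their values are not separate evidence.

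Against diets of matched isoflavone, Inmt in T20 livers was higher by 2.02 ± 0.45 log2 than in CI livers (4.05-fold) and by 3.17 ± 0.45 log2 than in SI livers (8.97-fold). Soy protein went the other way, with S livers 2.88-fold lower than C livers (log2 difference -1.53 ± 0.45). Without C replicate 3 and CI replicate 3, the difference of T20 from CI was 2.25 log2 and that of S from C was -1.73 log2. The ranges of Inmt did not overlap in 4 of the 15 pairs of diets. Among all tested probe sets, 4.05% did not overlap between T20 and SI, 3.86% between T20 and S, 5.03% between T10 and SI and 5.46% between T10 and S. As T20 entered the choice of Inmt, the first pair of these shares is printed beside the count without a reading.

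Only 2 comparisons of Inmt had means free of the arrays that chose it. Their SE and tests still used the spread over all 30 arrays unless stated. SI livers were 2.22-fold lower than CI livers (log2 difference -1.15 ± 0.45, 95% interval -2.06 to -0.23), which did not pass in limma (adjusted p = 0.0884). It passed without CI replicate 2 (adjusted p = 0.0482), and leaving out C replicate 3 and CI replicate 3 gave -0.91 log2 (adjusted p = 0.207). With only the compared groups in the model, the SE of this difference was 0.41 log2 (limma adjusted p = 0.0880). SI and S livers differed by 0.44 ± 0.45 log2 (95% interval -0.47 to 1.35, limma adjusted p = 0.999). For CI against C the difference was 0.06 ± 0.45 log2, and -0.38 ± 0.48 without C replicate 3 and CI replicate 3. How far the isoflavone difference varied with protein source was 0.38 ± 0.63 log2, and 0.82 ± 0.64 without C replicate 3 and CI replicate 3. With 1 array left out it ran from 0.12 to 0.61. Among the 4 diets of that design, Inmt thus differed more between protein sources than with added isoflavone in these values, and no test of that contrast was made.

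Tpmt was the 1 enzyme that passed a test in any comparison, and Inmt was tested in only 2 of the 10. T20 livers had Tpmt values of 11.32, 11.40, 11.15, 10.70 and 10.64 log2. Those of SI livers were 10.71, 10.71, 10.41, 10.46 and 10.40 log2. Replicates 1, 2 and 3 of T20 lay above every SI liver, and replicates 4 and 5 overlapped them. The means were 11.04 ± 0.35 in T20 and 10.54 ± 0.16 in SI (SD, n = 5 each), a difference of 0.50 ± 0.13 log2 (95% interval 0.24 to 0.77, 1.42-fold, limma adjusted p = 0.0280). This call ended without SI replicate 4 (adjusted p = 0.0616), SI replicate 5 (0.0739), T20 replicate 1 (0.0958), T20 replicate 2 (0.0938) or T20 replicate 3 (0.0639).

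Tpmt in the other diets lay between 10.28 and 11.09 log2. The lowest of their means was that of S, 10.59, beside 10.54 in SI. T10 livers read 10.78, 10.90, 11.09, 10.74 and 10.59 log2 and S livers 10.62, 10.74, 10.28, 10.53 and 10.80. CI livers read 10.78, 10.74, 10.74, 10.94 and 10.82 log2 and C livers 11.03, 10.96, 10.57, 10.84 and 10.72. The order of means was T20, C, T10, CI, S, SI, and of these neighbours CI and S, 0.21 log2 apart, differed by more than both SDs. Each SI liver was lower than each CI liver, with a difference of -0.27 ± 0.13 log2 that did not pass (limma adjusted p = 0.181); 10.1% of all tested probe sets did not overlap between SI and CI. T20 and C livers differed by 0.22 ± 0.13 log2 (limma adjusted p = 0.354), with a 95% interval of -0.05 to 0.49. The F test over all diets gave an adjusted p of 0.0593 for Tpmt.

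Nnmt, which removes nicotinamide as a methylated product, did not pass in any comparison. T20 livers read 11.45, 11.30, 11.49, 10.44 and 11.41 log2. T10 livers read 10.98, 10.80, 10.87, 10.57 and 11.02 log2. In T20, replicate 4 lay below the rest, and the other T20 livers were above all T10 livers. SI livers had Nnmt values of 10.60, 10.87, 11.34, 11.06 and 10.72 log2, and S livers of 10.62, 10.50, 10.26, 10.73 and 10.67. CI livers read 10.83, 11.08, 10.78, 11.42 and 11.65 log2 and C livers 10.59, 11.30, 10.92, 11.18 and 10.56. S livers lay below all CI livers, a pair in which 6.96% of all tested probe sets did not overlap.

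Mean Nnmt levels were 11.22 ± 0.44 in T20, 10.85 ± 0.18 in T10, 10.92 ± 0.29 in SI, 10.56 ± 0.19 in S, 11.15 ± 0.38 in CI and 10.91 ± 0.34 in C (log2, SD, n = 5 each). Of the neighbours in the order T20, CI, SI, C, T10, S, the last pair, 0.29 log2 apart, exceeded both SDs. T20 livers differed from T10 livers by 0.37 ± 0.19 log2 (limma adjusted p = 0.726) and from C livers by 0.31 ± 0.19 log2 (limma adjusted p = 0.376). The difference of S from C livers was -0.35 ± 0.19 log2 (limma adjusted p = 0.288), and that of SI from S livers 0.36 ± 0.19 log2 (limma adjusted p = 0.999). The F test gave an adjusted p of 0.112, and 0.0135 without T20 replicate 4.

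Pemt, the phosphatidylcholine enzyme, had its lowest mean and smallest spread in C livers. SI livers read 13.81, 13.92, 13.92, 13.58 and 13.94 log2, and S livers 13.40, 13.91, 13.97, 13.42 and 13.44. CI livers had Pemt values of 13.90, 13.99, 14.04, 13.58 and 13.37 log2, and C livers of 13.37, 13.41, 13.53, 13.36 and 13.41. Each SI liver was above each C liver, as were 3 of 5 CI livers by more than 0.3 log2; between SI and C, 7.67% of all tested probe sets did not overlap. T20 livers read 14.04, 13.81, 13.60, 13.63 and 13.45 log2, and T10 livers 13.72, 13.51, 13.28, 13.55 and 13.60.

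The means of Pemt were 13.71 ± 0.23 in T20, 13.53 ± 0.16 in T10, 13.84 ± 0.15 in SI, 13.63 ± 0.29 in S, 13.78 ± 0.29 in CI and 13.42 ± 0.07 in C (log2, SD, n = 5 each). No neighbours in the order SI, CI, T20, S, T10, C differed by more than both SDs. CI livers differed from C livers by 0.36 ± 0.13 log2, with an unadjusted p of 0.0105 and a limma adjusted p of 0.467. T20 livers differed from C livers by 0.29 ± 0.13 log2, with an unadjusted p of 0.0355 and a limma adjusted p of 0.205. Neither passed, and the F test gave an adjusted p of 0.136.

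Gamt, which completes creatine synthesis, varied least. Its 30 values lay within 0.51 log2 of each other, a range narrower than that of most tested probe sets (5.88% had a smaller one). Mean levels were 14.34 ± 0.07 in T20, 14.39 ± 0.14 in T10, 14.31 ± 0.09 in SI, 14.16 ± 0.09 in S, 14.23 ± 0.16 in CI and 14.30 ± 0.07 in C (log2, SD, n = 5 each). S livers read 14.07, 14.16, 14.08, 14.30 and 14.18 log2 and C livers 14.20, 14.40, 14.31, 14.31 and 14.29. S livers tended to the low end, yet the groups overlapped and the difference of -0.14 ± 0.07 log2 did not pass (limma adjusted p = 0.262). All pairs of diets overlapped for Gamt. The isoflavone by protein term was 0.22 ± 0.10 log2 (unadjusted p = 0.0450, limma adjusted p = 0.535), and the F test gave an adjusted p of 0.188.

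**Figure D2:**
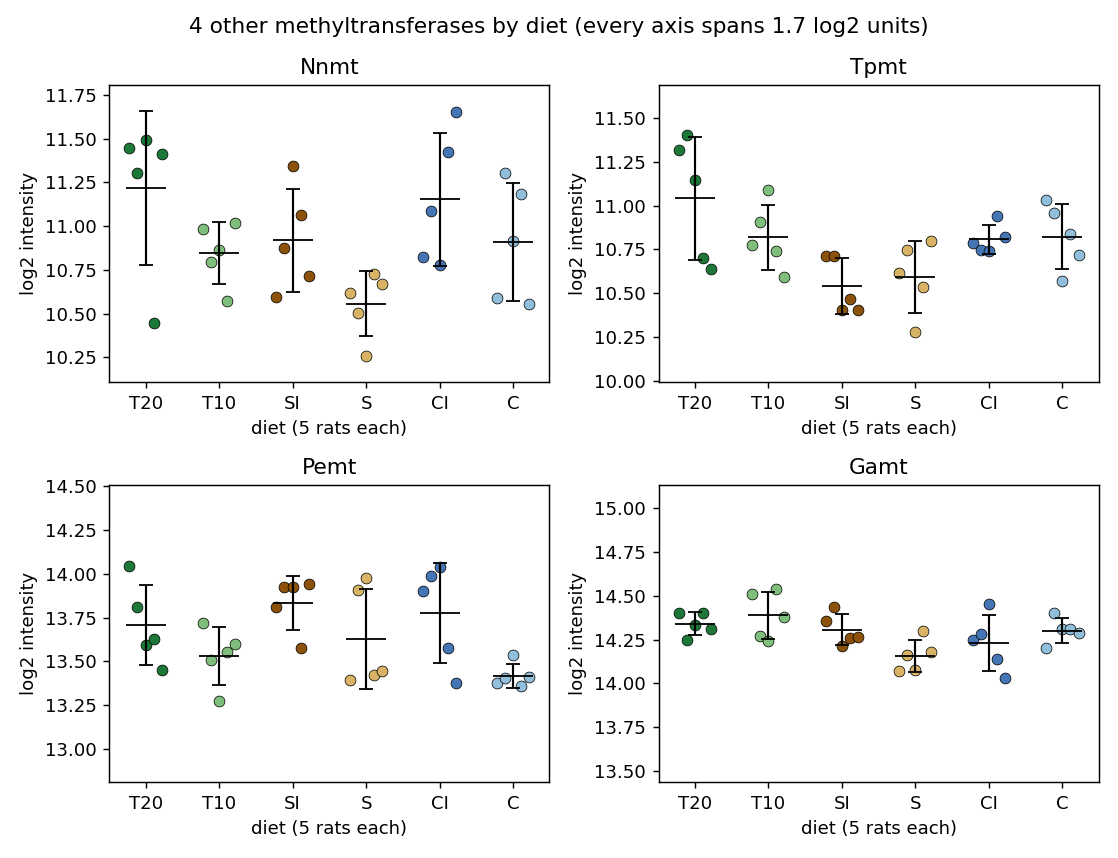
Log2 intensity (vertical axes, each spanning the same number of log2 units) of Nnmt, Tpmt, Pemt and Gamt by diet (horizontal axes); points are livers, horizontal lines are means and bars are SD over 5 rats. In T20, 1 Nnmt value of 10.44 lies below the other 4, and Pemt in C has the smallest SD, 0.07.

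Across the 4 enzymes other than Inmt, 40 tests were made in 10 comparisons. Of these, 5 had an unadjusted p under 0.05, and 1, Tpmt in T20 against SI, passed after adjustment over all tested probe sets. Probe sets with an unadjusted p under 0.05, of all 18625, numbered 3800 in T20 against C and 3508 in T20 against SI. They numbered 1845 in T10 against C, 3005 in T20 against CI, 3981 in S against C and 5123 in SI against CI. For the interaction the number was 1716, and the remaining comparisons follow below. The count of 5 is given beside these numbers without a reading. For T20 against SI, 3.51% of all tested probe sets passed. In T20 against C, where 4.5% passed, 0 of the 4 enzymes did, and in T20 against CI, where 2.12% passed, also 0. None passed in T10 against C, with 0.322% of all probe sets. The soy comparisons called more of the array, 7.25% in S against C and 11.6% in SI against CI, and 0 of the 4 enzymes. In T20 against T10, CI against C and SI against S, limma called 0% of all probe sets, although 1318, 1605 and 664 probe sets in that order had an unadjusted p under 0.05. The interaction called 0.0161% of the array and 0 of these enzymes. The F test over the diets called 12.9% of the array and none of the 4. A count of 1 among 4 enzymes is too small to be set apart from these shares.

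**Figure D3:**
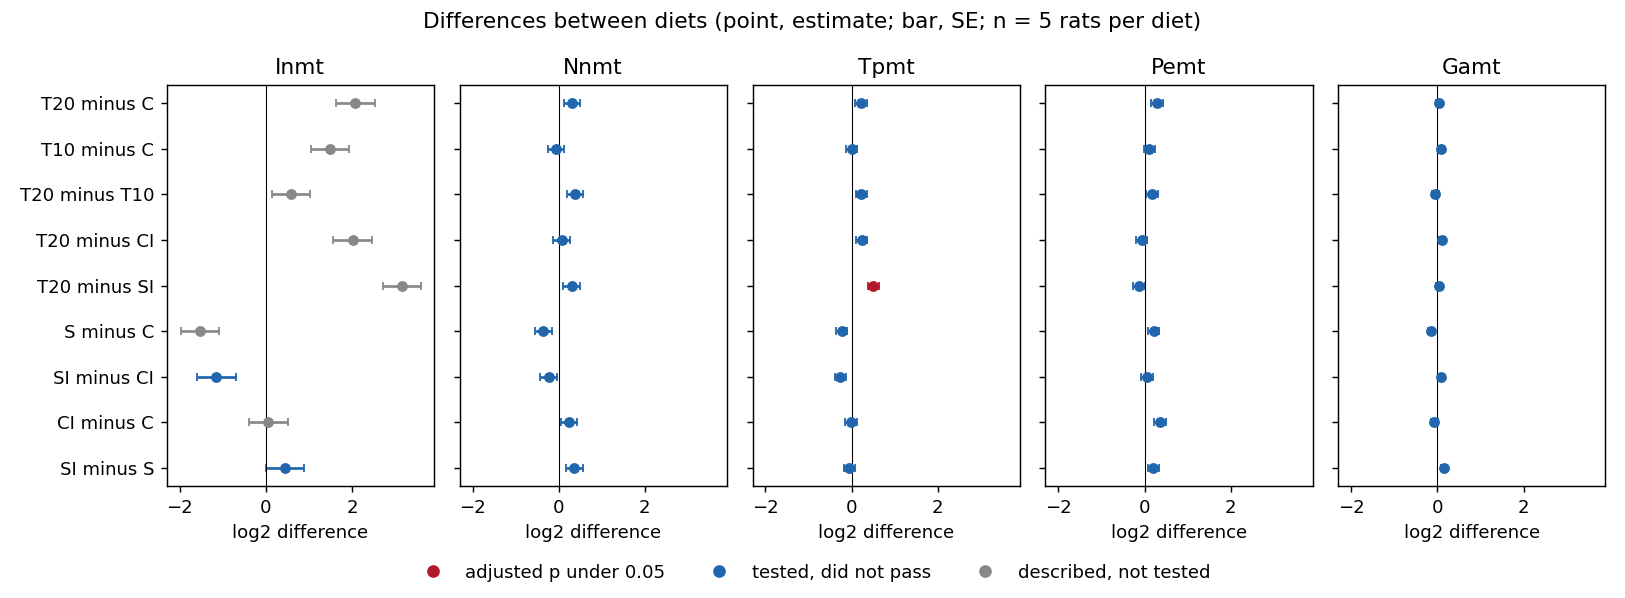
Log2 differences between diets (horizontal axes) for 9 comparisons (rows) in Inmt, Nnmt, Tpmt, Pemt and Gamt; points are estimates and bars are SE, 5 rats per diet. Inmt differences reach 3.17 for T20 minus SI, while those of the other enzymes reach 0.50, and the 1 red point is Tpmt in T20 minus SI.

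The 5 enzymes did not follow 1 pattern. Over 30 livers, the correlation of log2 intensity with Inmt was 0.53 for Tpmt, 0.42 for Nnmt, 0.37 for Gamt and -0.04 for Pemt. After the mean of each diet was subtracted, these became -0.01 for Tpmt, 0.21 for Nnmt, -0.10 for Gamt and 0.17 for Pemt. The values of Tpmt and Inmt thus went together between diets and not among rats on 1 diet. Pemt and Gamt correlated at 0.18, and at 0.41 within diets. All such correlations share arrays and their normalization, and are given as descriptions.

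Of the other small-molecule methyltransferases on the array, 6 of 9 could be tested, since Hnmt, Asmt and Pnmt were below the filter. Mettl7a, whose human counterpart methylates alkyl thiols, passed in T20 against SI. Its levels were 11.20 ± 0.29 in T20 and 10.46 ± 0.18 in SI (log2, SD, n = 5 each), with a difference of 0.73 ± 0.15 log2 (limma adjusted p = 0.00845). Mettl7a also fell in SI against CI, by 0.51 log2 (limma adjusted p = 0.0299), a call that ended without any 1 of 5 arrays (CI replicates 3 and 5, SI replicates 2, 4 and 5). Over 30 livers it correlated with Inmt at 0.78. Mettl7b, its close relative, was higher in SI than in CI livers by 0.80 ± 0.23 log2 (limma adjusted p = 0.0213), and without CI replicate 5, SI replicate 1 or SI replicate 5 it did not pass. Gnmt, glycine N-methyltransferase, consumes surplus SAM in liver. It was higher in T20 than in C livers by 0.53 ± 0.15 log2 (limma adjusted p = 0.0471), with levels of 14.38 ± 0.21 in T20 and 13.85 ± 0.26 in C. Leaving out any of 8 arrays (C replicates 1, 3, 4 and 5, T20 replicates 1 to 4) ended that call, with adjusted p-values from 0.0253 to 0.141 over the arrays left out. It also ended under 6 of 11 other settings, with adjusted p-values up to 0.120. As3mt, Coq3 and Coq5 passed in none of the 10 comparisons. The median difference of the 6 genes was 0.19 log2 in T20 against C, where that of all probe sets was -0.01, and 0.06 log2 in T20 against SI, where that of all was 0.02.

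Genes that supply SAM or remove S-adenosylhomocysteine numbered 17, all tested. Mat2a, which makes SAM and is the form typical of tissues outside the adult liver, passed in 5 comparisons. It was higher in T20 than in C livers by 0.87 ± 0.18 log2 (limma adjusted p = 0.00563), lower in T20 than in SI livers (log2 difference -1.48 ± 0.18, limma adjusted p = 3.96e-05), and higher in S than in C livers by 2.31 ± 0.18 log2 (limma adjusted p = 5.55e-09). Mat2a was thus highest in the soy protein groups, where Inmt was lowest, and its correlation with Inmt over 30 livers was -0.55. In T20 against C and T20 against CI, however, both Mat2a and Inmt were higher in T20. Within this list the correlation of Mat2a was the lowest, and the highest were 0.75 for Mat2b, 0.72 for Cbs and 0.72 for Adk. Cbs, which draws homocysteine into cysteine synthesis, fell in S against C livers by 0.86 log2 (limma adjusted p = 0.000348). In the list as a whole, 3 genes rose and 1 fell in T20 against SI, 1 rose and 3 fell in S against C, 1 rose and 1 fell in SI against CI, and 1 rose in each of T20 against C, T10 against C and T20 against CI. Of all tested probe sets, 3.51% passed in T20 against SI, 7.25% in S against C and 11.6% in SI against CI. The shares were 4.5% in T20 against C, 0.322% in T10 against C and 2.12% in T20 against CI. Without 1 array or another, the calls of Adk in T10 against C (adjusted p up to 0.125), of Mat2b (0.111), Adk (0.136) and Cbs (0.0799) in T20 against SI, of Ahcyl1 in S against C (0.102) and of Bhmt2 in SI against CI (0.0866) ended. The median difference of the list in S against C was -0.13 log2, where that of all probe sets was -0.04.

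Each of the other enzymes was set beside its own list. Of all tested probe sets, 4.5% passed in T20 against C, 2.12% in T20 against CI and 3.51% in T20 against SI. The shares were 0.322% in T10 against C, 7.25% in S against C and 11.6% in SI against CI. Around Nnmt, 16 genes of nicotinamide and NAD metabolism were tested. In S against C livers 3 fell, namely Kynu, Kmo and Afmid, enzymes of the kynurenine route from tryptophan, and Kynu also fell in SI against CI. Afmid differed by -0.51 ± 0.11 log2 in S against C (limma adjusted p = 0.00450). No gene of this list passed in a comparison with tofu. Around Pemt, 13 of 14 genes of phosphatidylcholine synthesis were tested. In T20 against SI livers, Slc44a1, a choline transporter, rose by 0.40 ± 0.10 log2 (limma adjusted p = 0.0209) and Chkb, a choline kinase, fell by 0.39 log2 (limma adjusted p = 0.0174). Without T20 replicate 1 neither of these passed, nor did Chkb without SI replicate 2 or Slc44a1 without SI replicate 5 or T20 replicate 5 (adjusted p up to 0.0697 for Chkb and 0.0744 for Slc44a1). In T20 against C 1 gene of the list fell, Etnk1. In S against C 4 fell, namely Chka, Pcyt2, Etnk1 and Slc44a1, and in SI against CI 1 rose, Chkb, and 2 fell, Cept1 and Slc44a1. In S against C, the calls of Kynu, Chka and Pcyt2 ended without 1 of 7, 10 and 1 arrays in that order (adjusted p up to 0.127 for Kynu, 0.126 for Chka and 0.0528 for Pcyt2, the last without C replicate 3), and that of Etnk1 in T20 against C ended without any of 4 (up to 0.0757). The creatine list around Gamt (3 of 6 tested), the purine analogue list around Tpmt (6 tested) and the indole and amine list around Inmt (6 of 7 tested) held 0 calls by limma in the 10 comparisons. Lists of this size are too small for 0 calls to be set apart from the shares of all probe sets. Of 31 calls over the 7 lists, 16 held without any 1 array of the diets compared.

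**Figure D4:**
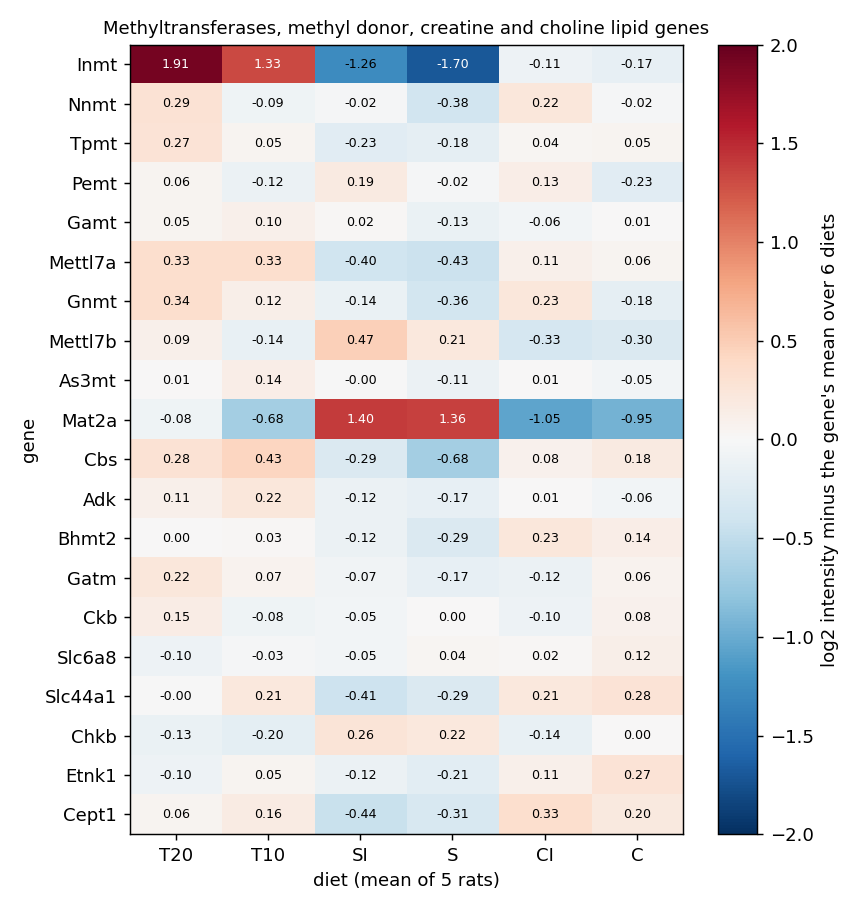
Mean log2 intensity of each gene on each diet (columns, 5 rats each) minus that gene's mean over the diets, for the 5 enzymes and for genes of the methyltransferase, methyl donor, creatine and phosphatidylcholine lists (rows). Red is above and blue below the gene's own mean, and Inmt runs from 1.91 in T20 to -1.70 in S while Mat2a runs the other way between the soy and tofu diets.

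The genes whose pattern over 30 livers was most like that of Inmt were Isoc2a (Pearson r = 0.84), Cela1 (r = 0.83), Oat (r = 0.81), Tmem219 (r = 0.80), Cyp2d4 (r = 0.80) and Ebp (r = 0.78). Oat is ornithine aminotransferase, Cyp2d4 a cytochrome P450, Ebp a sterol isomerase of cholesterol synthesis and Cela1 an elastase. Rank correlations for these 6 genes ran from 0.76 for Ebp to 0.83 for Cela1. Without the 2 arrays farthest from the median of Inmt, T20 replicate 1 and S replicate 5, r ran from 0.73 for Ebp to 0.81 for Isoc2a. Within diets the likeness differed: it was 0.58 for Cela1, 0.48 for Tmem219 and 0.44 for Isoc2a, and 0.05 for Oat. Oat followed the diet means of Inmt, with 14.21 ± 0.45 in T20, 13.90 ± 0.27 in T10, 12.28 ± 0.27 in SI, 11.99 ± 0.12 in S, 13.04 ± 0.73 in CI and 13.13 ± 0.19 in C (log2, SD, n = 5 each), but not the differences among rats on 1 diet. Most opposite were Tm6sf2 (r = -0.83), Slc12a7 (r = -0.83) and Alg8 (r = -0.81). Of 10698 genes, 3 had an r above 0.8 and 4 an r below -0.8. The genes were picked for this likeness, so r is a description.

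**Figure D5:**
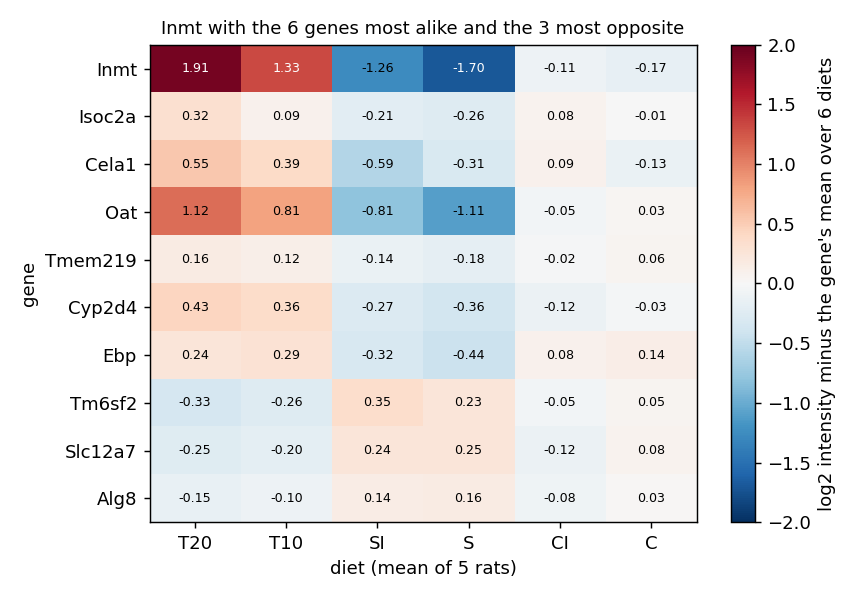
Mean log2 intensity on each diet (columns, 5 rats each) minus the gene's mean over the diets, for Inmt, the 6 genes of highest correlation with it and the 3 of lowest (rows). The 6 alike are above their mean in T20 and T10 and below it in SI and S, and the 3 opposite ones the reverse.

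The summed intensities of some cell-type marker lists correlated with Inmt. Of the markers of pericentral hepatocytes, those around the central vein, 8 of the 9 on the array were tested and Lgr5 was below the filter. Their summed intensity ranged from 71422 to 112993 in T20, 84196 to 94032 in T10, 57881 to 78810 in SI, 51696 to 77712 in S, 53612 to 58181 in CI and 51040 to 65405 in C, and its correlation with Inmt over 30 livers was 0.59. Oat, which is part of this sum, was picked above for its likeness to Inmt, so this correlation is not separate evidence. In T20 against C, where 4.5% of all tested probe sets passed, 3 of the 8 rose (Slc1a2, Oat and Cyp1a2). In T20 against CI, where 2.12% of all passed, 6 rose, and in T20 against SI, where 3.51% passed, 1 rose, Oat. In SI against CI, where Inmt was lower and 11.6% of all passed, 5 of the 8 rose and 1, Oat, fell. In S against C, where Inmt was also lower and 7.25% passed, 2 rose (Glul and Slc1a2) and 1, Oat, fell. The summed periportal markers (8 of 8 tested) had a correlation with Inmt of 0.11. Endothelial markers (5 of 5 on the array tested) correlated with it at 0.57, with sums of 11237 to 13064 in T20, 11668 to 12321 in T10, 9777 to 11260 in SI, 9811 to 12799 in S, 9311 to 11843 in CI and 10110 to 11653 in C. Kupffer cell markers (6 of 6 tested) correlated with it at 0.53, with sums of 16016 to 22089 in T20, 14823 to 24013 in T10, 12997 to 20514 in SI, 14063 to 20193 in S, 11679 to 17795 in CI and 16790 to 19322 in C. Stellate cell markers (8 of 9 tested) correlated with Inmt at 0.04, and cholangiocyte markers (3 of 4 tested) at -0.44. The correlation of the summed general hepatocyte markers (5 of 5 tested) with Inmt was -0.12. No Kupffer cell marker passed in any of the 10 comparisons. The endothelial marker that passed was Lyve1, higher in T20 than in C livers. Of the stellate cell markers, Rgs5 was higher in T20 than in C, CI and SI livers, and Acta2 was higher in SI than in CI livers. The part of these cells in the Inmt differences was not tested. Cela1 belongs to the list for exocrine pancreas, of which the other 5, Prss1, Cpa1, Amy2a3, Pnlip and Ctrb1, were below the filter. The sum over that list correlated with Inmt at 0.80 and ran from 2687 to 6178 in T20, 3047 to 4470 in T10, 1577 to 2468 in SI, 2250 to 2639 in S, 2613 to 4203 in CI and 2355 to 2909 in C. Cela1, the 1 tested gene of that list, was picked above for its likeness to Inmt, so this correlation is not separate evidence.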

How the data were processed

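The authors deposited 1 linear intensity per probe set and array, from biotin-labelled cRNA, normalized with SuperNORM per the labels; the level they refer to is unstated there. The labels call the arrays of a diet biological replicates. Of 31099 probe sets, 57 controls were left out. Values under 16 were set to 16 before log2 was taken. Probe sets with a mean above the 40th percentile were tested (18625, for 10699 genes). Symbols came from the platform annotation (20832 probe sets with 1 symbol, 436 with several, 9831 with none; 20764 had a current record). No coordinates are printed, since no build is given.

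A linear model of the 6 diet means on the 30 arrays used limma (version 3.58.1, R 4.3.3) with a mean-variance trend, 24 residual degrees of freedom, two-sided tests and Benjamini-Hochberg adjustment within each comparison at 0.05. Named were the 5 enzymes, list genes that passed or had the smallest F-test p (up to 4 a list), and the 6 genes most like Inmt and 3 most opposite. A gene was represented by its brightest tested probe set. The members, lists and tests were chosen with earlier results of these data known.

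Alternatives were quantile normalization, median centring, floors of 1 and 64, no filter or a 60th percentile filter, no variance trend, array weights, only the compared groups, the replicate number as a block, each array left out, C replicate 3 and CI replicate 3 left out, and T10 replicates 3, 4 and 5 left out. For list genes the same alternatives were added after seeing the data. Scripts were tested on simulated data. Replicate numbers were not used as pairs in the main model. Figures used matplotlib 3.10.9 under Python 3.11.15.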

Additional observations from a re-analysis of the deposited data

Results flagged for a closer look

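Nnmt in T20 replicate 4, at 10.44 log2, lay far below the other 4 T20 livers, which read 11.30 to 11.49. It was the 1 outlying value among the 30 groups of 5 livers examined (5 enzymes on 6 diets), a rule by which chance marks about 1 group in 20. Without this liver the limma F test of Nnmt over the diets passed, with an adjusted p of 0.0135 against 0.112 with it. The cause was not tested.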

How the results depend on the processing

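The count of enzymes called in T20 against SI, 1 (Tpmt), became 0 with arrays centred on the median (Tpmt adjusted p = 0.0609) and with only the compared groups (adjusted p = 0.156), and ran from 0 to 1 with 1 array left out. The count by the F test, 0, became 1 with the 60th percentile filter and 1 with the replicate block (Tpmt in both, adjusted p = 0.0483 and 0.0349), and ran from 0 to 2 with 1 array left out. The 2 were Nnmt and Tpmt without T20 replicate 4, and Tpmt alone passed without T20 replicate 5. All other counts of enzymes called stayed at 0 under the alternatives run. After diet means were subtracted, correlations of same-numbered arrays from different diets ran from -0.28 to 0.35 (median 0.05). For differently numbered arrays they ran from -0.37 to 0.40 (median -0.01). Of 30 arrays, 8 correlated best with an array of their own number. These values do not settle whether replicate numbers pair the arrays. With the replicate block Tpmt in T20 against SI had an adjusted p of 0.0172.

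Differences that changed sign were uncalled. Inmt in CI against C, 0.06, was -0.38 without C replicate 3 and CI replicate 3, -0.01 with centring on the median and -0.03 with array weights, and ran from -0.17 to 0.32 with 1 array left out. The others were near 0. With quantile normalization these were Gamt in T20 against C (-0.0694), Tpmt in T10 against C (0.0447) and Tpmt in CI against C (0.0247). With centring on the median they were Tpmt in T10 against C (0.0129), Gamt in T20 against SI (-0.0396) and the Tpmt interaction (0.0545). Without C replicate 3 and CI replicate 3 they were Nnmt in T20 against CI (-0.0273) and the Tpmt interaction (0.0101), and without T10 replicates 3, 4 and 5 Tpmt in T10 against C (0.0183). With 1 array left out, values ran from -0.151 to 0.0352 for Nnmt and -0.0689 to 0.0547 for Tpmt in T10 against C, -0.0273 to 0.260 for Nnmt in T20 against CI, -0.0406 to 0.126 for Pemt in SI against CI, -0.0793 to 0.0364 for Tpmt in CI against C and -0.117 to 0.0260 for the Tpmt interaction. The cause was not tested in these cases. Of the 31 calls of list genes, 12 held under every alternative, 12 ended with only the compared groups, which leaves fewer arrays to estimate the spread, 12 with centring on the median, 9 without C replicate 3 and CI replicate 3, 6 with no filter, 5 with no variance trend, 3 with quantile normalization, 2 with array weights and 1 without T10 replicates 3, 4 and 5. Of the calls that held without any 1 array, Mat2a in T20 against C (adjusted p = 0.0645), Mettl7a in T20 against SI (0.0582) and Kmo in S against C (0.0913) ended with only the compared groups, and Kynu in SI against CI (0.0523) with centring on the median. Gnmt and Etnk1 in T20 against C, Adk in T10 against C and Cbs, Chkb and Slc44a1 in T20 against SI also ended with only the compared groups.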
